A study of Azumapecten farreri with 9 samples.

Results

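Hemocytes of the Zhikong scallop Chlamys farreri (Azumapecten farreri in the labels) were profiled by poly(A) RNA sequencing, and the libraries described here are those of the animals injected with PBS. They number 3 of the 9 libraries of the series and were chosen by their title and group label, which match. The other 6 libraries come from animals given exosomes, vesicles that cells release when endosomes fuse with the cell membrane. There are 3 titled LPS_T and 3 titled NOR_T, but titles and group labels contradict each other there: LPS_T libraries carry the label for normal exosomes, and NOR_T libraries the label for exosomes after LPS stimulation (LPS is bacterial lipopolysaccharide). The exosome libraries are therefore named by title and are tested against PBS only as the mean of both groups; levels are given for each title group. The 3 groups LPS_T, NOR_T and PBS share an injection, so the PBS libraries are a baseline of injected, not of untouched, animals. Dose, time after injection, age, and whether a library holds 1 animal or a pool are not given in the labels, so the spread between libraries may be technical.

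Hemocytes are the circulating cells of the open blood system of molluscs. They phagocytose and encapsulate microbes, seal wounds, store and move metals, and secrete matrix proteins, proteases and immune effectors. Crawling, spreading and phagocytosis run on a cortex of actin filaments that is rebuilt continuously, which is why actin regulators are a usual part of the description of such cells.

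Levels are given as TPM, the deposited FPKM of a library scaled to sum to 1000000, so that genes of different length can be compared. Before scaling, 2 adjacent genes were set aside because they dominated PBS 1. The gene evm.TU.scaffold38697.1 (positions 21 to 686, plus strand, described as hypothetical protein T4B_1994) had 1312769 estimated counts in PBS 1, 5377 in PBS 2 and 5480 in PBS 3. Its neighbour evm.TU.scaffold38697.2 (positions 1676 to 1867, minus strand, no description) had 2220484 in PBS 1, 9639 in PBS 2 and 9114 in PBS 3. The pair took 17.8% of the counts of PBS 1 and 58.5% of its FPKM, against 0.0318% to 0.0979% of the counts in the other 8 libraries.

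PBS 1 also had the least depth. Its total was 19894628 estimated counts, against 40149519 in PBS 2 and 45831950 in PBS 3. One sequenced fragment was worth about 3.84 counts, so the depths were about 5180000, 10460000 and 11940000 fragments. A gene without a count could still be present at up to 0.704 fragments in every 1000000 outside the 2 set-aside genes in PBS 1, 0.287 in PBS 2 and 0.251 in PBS 3. This is the limit of 3 fragments that a count of 0 allows, and it covers counting error alone. At least 1 TPM was reached by 11974 genes in PBS 1, 12319 in PBS 2 and 12397 in PBS 3.

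Of the 21615 genes ranked, 10982 (50.8%) reached at least 1 TPM in all 3 PBS libraries and are called expressed. A further 2515 (11.6%) had no count in any of the 3 and are called silent, and 8118 lay in between. Without PBS 1, 11713 genes were expressed and 2985 silent, and without PBS 2 or PBS 3 there were 3498 or 3718 silent genes. Among the expressed genes, 5639 averaged 1 to 10 TPM, 4302 averaged 10 to 100, 862 averaged 100 to 1000, and 179 averaged 1000 or more.

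The transcriptome was concentrated in few genes. The most abundant gene held 8.51% ± 0.604 of all TPM, the first 10 held 18.2% ± 0.791, the first 30 held 28.9% ± 0.845 and the first 100 held 49.2% ± 0.860 (SD, n = 3). Without PBS 1 the share of the first 100 was 48.8%. It took 22 genes to reach 25% of the TPM, 105 to reach 50%, 477 to reach 75% and 1971 to reach 90%. The order was shared between libraries: 28 genes stood among the first 30, and 94 among the first 100, in each of the 3 libraries.

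**Figure D1:**
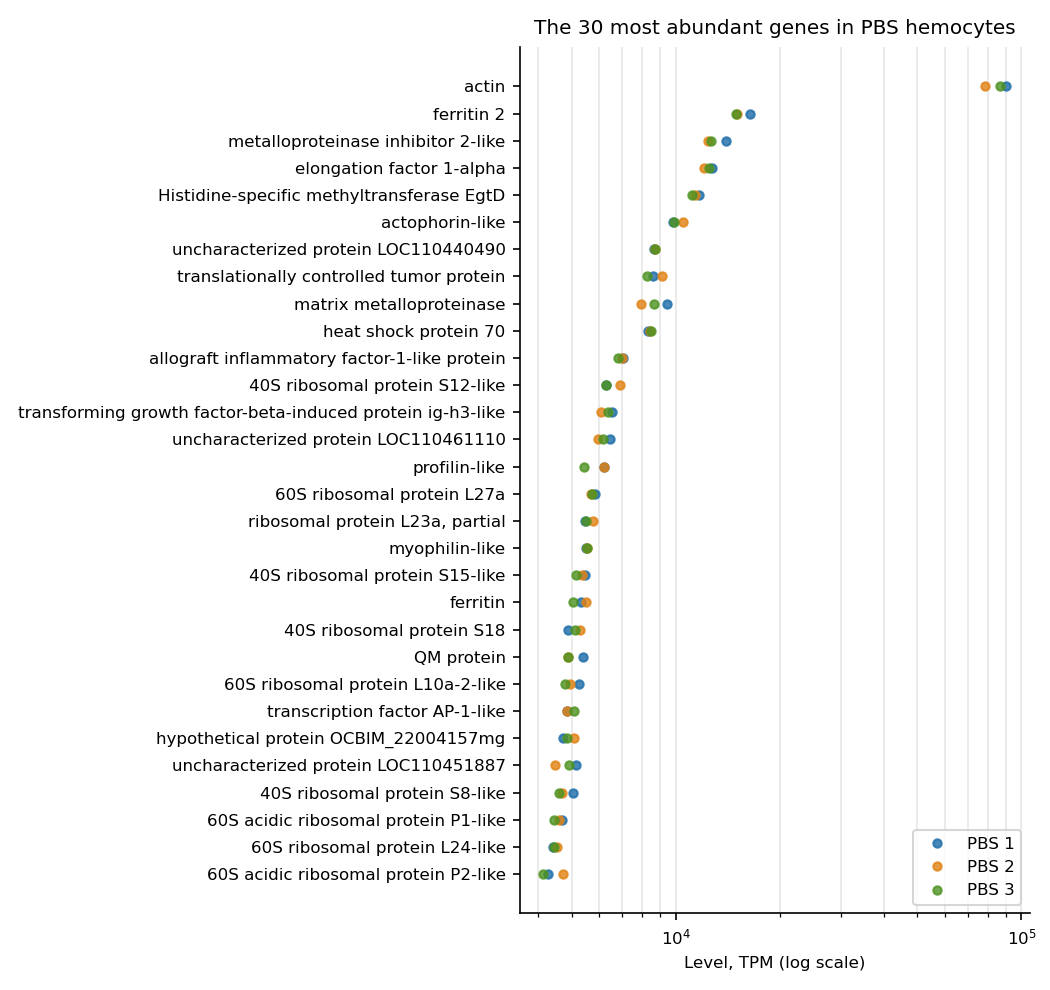
Levels of the 30 genes with the highest mean TPM in PBS hemocytes, ordered by that mean; each point is 1 of the 3 PBS libraries and the horizontal axis is TPM on a log scale. Actin stands apart at 78563 to 90440.1 TPM, and the points of the other 29 genes lie between 4134 and 16374 TPM.

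The most abundant gene by far encoded actin, the filament protein of the cell cortex (evm.TU.scaffold22095.12, scaffold22095, positions 191699 to 194787, minus strand). It stood at 90440.1 TPM in PBS 1, 78563 in PBS 2 and 86404 in PBS 3, a mean of 85136 ± 6039 (SD, n = 3). The next gene in rank, ferritin 2, averaged 15460.2 TPM, so actin was set apart from all other genes in every library. Genes of near-identical sequence, actins and tubulins among them, can exchange reads, and their split is uncertain.

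Regulators of actin filled several further places near the top. Actophorin-like, of the cofilin type that severs filaments, had 9790.0 TPM in PBS 1, 10475 in PBS 2 and 9909 in PBS 3. Profilin-like, which loads actin monomers for growth, had 6178 in PBS 1, 6193 in PBS 2 and 5426 in PBS 3. The calponin-type protein myophilin-like had 5498, 5528 and 5535 TPM in PBS 1, 2 and 3. Beta-actin followed at a mean of 3759 TPM, protein singed-like (fascin, which bundles filaments) at 3000.1 and a subunit of the Arp2/3 complex, which branches filaments, at 2265. Over the whole list of 83 actin cytoskeleton genes, 55 were expressed and 3 silent (a nonmuscle actin, gelsolin-like protein 2 and a further profilin), and the list held 12.4% ± 0.547 of all TPM, 68.6% of it from the actin gene alone. Of the 28 tubulin genes, 21 were expressed and 2 silent (tubulin beta chain-like and tubulin beta-2B chain-like), with 0.911% of all TPM. They were led by tubulin alpha-1 chain-like at a mean of 3154 TPM, tubulin beta-4B chain at 1927 and tubulin alpha-1A chain at 1359.

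The machinery of protein synthesis was the largest class. All 69 ribosomal protein genes of the list, matched by description, were expressed, all at a mean of at least 100 TPM. The list does not cover every ribosomal gene: the KEGG pathway Ribosome has 121, of which 109 were expressed and 1 silent. Together the 69 held 18.7% of the TPM in PBS 1, 18.8% in PBS 2 and 17.9% in PBS 3. No gene carried this list: its highest member, 40S ribosomal protein S12-like, gave 3.52% of the sum, with 6291 TPM in PBS 1, 6894 in PBS 2 and 6293 in PBS 3. 60S ribosomal protein L27a averaged 5756 TPM and ribosomal protein L23a 5576. Counted as a share of estimated counts, with no correction for gene length, ribosomal proteins held 9.08%. Among the first 30 genes were also 40S proteins S15, S18 and S8, 60S proteins L10a and L24, the QM protein (ribosomal protein L10), and the acidic stalk proteins P1 and P2. These 8 averaged between 4373 and 5317 TPM.

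Translation factors, which bring amino acids and messages to the ribosome, had 47 of 50 genes expressed and none silent. Elongation factor 1-alpha, which delivers aminoacyl-tRNA, had 12705 TPM in PBS 1, 12093 in PBS 2 and 12485 in PBS 3, and gave 41.3% of the list. Elongation factor 2-like averaged 4005 TPM and Elongation factor 1-gamma 2197. Translationally controlled tumor protein, a small conserved protein named for the control of its own message, stood at 8603 TPM in PBS 1, 9095 in PBS 2 and 8262 in PBS 3.

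Energy metabolism was broadly expressed at moderate levels. Of 51 genes of the respiratory chain and ATP synthase, 50 were expressed, and they held 1.79% ± 0.0621 of the TPM. The ADP,ATP carrier, which exchanges nucleotides across the inner mitochondrial membrane, averaged 2086 TPM, ATP synthase subunit O 1132 and NDUFA4-like 1045. Glycolysis had 15 of 16 genes expressed at 0.313% of the TPM, led by glyceraldehyde-3-phosphate dehydrogenase-like at 1298 TPM, hexokinase type 2-like at 586 and enolase-like at 329. In the KEGG pathway of the citrate cycle 31 of 41 genes were expressed and 2 silent.

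Iron and copper proteins ranked high through few members. Ferritin 2, a subunit of the iron storage shell, had 16374 TPM in PBS 1, 15056 in PBS 2 and 14950.1 in PBS 3, which is rank 2 in each library. A further ferritin on the same scaffold (scaffold63483), with 1 gene between them, had 5312, 5506 and 5056 TPM in PBS 1, 2 and 3. Hephaestin-like protein, named for a vertebrate copper ferroxidase, averaged 2853 TPM. Only 12 of the 30 genes of the list were expressed and 2, both named Laccase-2, were silent, while the list held 2.59% of all TPM.

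Extracellular proteolysis was represented by both an inhibitor and its class of targets. Metalloproteinase inhibitor 2-like, of the type that blocks matrix metalloproteinases, held rank 3 with 13977 TPM in PBS 1, 12398 in PBS 2 and 12662 in PBS 3. It made up 95.7% of the summed level of the 27 complement, thioester and protease inhibitor genes, of which 12 were expressed and 8 silent. Metalloproteinase inhibitor 4-like followed at 388 TPM and leukocyte elastase inhibitor-like at 75.2. A matrix metalloproteinase (evm.TU.scaffold61119.5) had 9398 TPM in PBS 1, 7909 in PBS 2 and 8620 in PBS 3. On scaffold28041, 2 neighbouring genes described as matrix metalloproteinase-19-like averaged 3488 and 3416 TPM, and zinc metalloproteinase nas-14-like of the astacin family averaged 2422. Of 34 metalloproteinase genes, a list added after the levels were seen, 12 were expressed and 3 silent. The silent ones belong to the ADAMTS type, secreted proteases with thrombospondin motifs.

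Matrix and adhesion genes were mostly low, with some exceptions. The collagen alpha-1(II) chain-like gene had 3577 TPM in PBS 1, 3881 in PBS 2 and 3996 in PBS 3 and gave 52.0% of the summed level of 196 matrix and adhesion genes. Collagen alpha-6(VI) chain-like averaged 934 TPM and cartilage matrix protein-like 400.3. Of the 196, 61 were expressed and 25 silent. Transforming growth factor-beta-induced protein ig-h3-like, a secreted adhesion protein in vertebrates, had 6514 TPM in PBS 1, 6054 in PBS 2 and 6384 in PBS 3.

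Chaperones had 122 of 178 genes expressed and 15 silent. Heat shock protein 70, which folds new and damaged proteins, had 8296 TPM in PBS 1, 8404 in PBS 2 and 8493 in PBS 3. Heat shock protein 90 averaged 3512 TPM and peptidyl-prolyl cis-trans isomerase B-like 1517. Ubiquitin and proteasome genes had 253 of 329 expressed and 17 silent, at 0.991% of the TPM. Their highest members were ubiquitin-like protein FUBI at 1119.6 TPM, E3 ubiquitin-protein ligase RBX1 at 301 and ubiquitin-conjugating enzyme E2 N at 263.

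Transcription factors of the early response type were abundant for regulators. Transcription factor AP-1-like (Jun type, evm.TU.scaffold59345.8) stood at 4857 TPM in PBS 1, 4832 in PBS 2 and 5083 in PBS 3. ATF-4-like, a factor of the amino acid and stress response, averaged 3258 TPM, and early growth response protein 1-B-like 2356. Of 28 genes on this list, also added after the levels were seen, 25 were expressed and 1, proto-oncogene c-Fos-like, was silent. Developmental transcription factors had 28 of 111 genes expressed and 24 silent. The highest were homeobox protein vnd-like at 285 TPM, transcription factor Runt, a blood cell factor in other animals, at 279.7 ± 14.3, and homeobox protein Mohawk-like at 236.

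Other genes near the top stood outside these classes or had no protein name. The gene in rank 5 is described as Histidine-specific methyltransferase EgtD, after the enzyme of ergothioneine synthesis in bacteria and fungi, and had 11640.1 TPM in PBS 1, 11378 in PBS 2 and 11148 in PBS 3. Allograft inflammatory factor-1-like protein, a calcium-binding protein of macrophages in vertebrates, had 7020.2, 7002 and 6804 TPM in PBS 1, 2 and 3. The uncharacterized protein LOC110440490 held rank 7 with 8672, 8702 and 8686 TPM, the uncharacterized protein LOC110461110 averaged 6193 TPM, the hypothetical protein OCBIM_22004157mg 4882 and the uncharacterized protein LOC110451887 4841. Without a protein name were 12 of the first 100 genes, against 24.5% of expressed genes, 35.4% of all ranked genes and 48.7% of silent genes. The first 100 genes were also short: their median transcript length, as implied by counts and FPKM, was 986 bases, against 1825 for expressed genes. They lay on 90 scaffolds with at most 2 per scaffold.

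The label of the cells was checked against 53 genes matching hemocyte markers, of which 22 were expressed (41.5%) and 5 silent. The expressed share lay below that of all ranked genes (50.8%) and of muscle (60.4%), gonad and gamete (61.9%) and ciliated epithelium markers (63.9%). Without ferritin 2 and ferritin, its 2 highest genes, the list held 0.416% to 0.465% of the TPM in PBS, against 2.47% to 2.58% with them. These shares do not by themselves bear out the label. The terms transglutaminase and thymosin, also on the list, matched no description. Besides the ferritins, laccase-3-like (a phenoloxidase) had 1401 TPM in PBS 1, 1534 in PBS 2 and 1623 in PBS 3. Cathepsin L-a averaged 791 TPM, and 2 soma ferritin-like genes 630.4 and 60.3. Among integrins, the adhesion receptors, integrin alpha-9-like isoform X2 averaged 313 TPM, integrin beta-6-like 212, integrin beta-PS-like 93.6 and a second integrin alpha-9-like gene 30.4. Transcription factor Runt is given above, and GATA-binding factor, the other blood cell regulator of the list, averaged 42.3 TPM. The actin binders plastin-3-like, coronin-1A-like and coronin-7-like averaged 152, 134 and 23.1 TPM. For the oxidative burst, the light chain of cytochrome b-245 stood at 99.9 TPM and the heavy chain-like gene at 13.6, and peroxidasin homolog at 32.0. The other expressed members were cathepsin L1-like at 5.01 TPM, integrin alpha-V-like at 3.98, integrin alpha-PS1-like at 3.29 and integrin beta pat-3-like at 2.56.

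The remaining hemocyte markers were near or at 0. Those with counts averaged between 0.0146 and 1.12 TPM. They were Coronin-2B and coronin-2B-like, NADPH oxidase 5-like in 2 genes, a soma ferritin-like gene, Cathepsin L1 and 2 cathepsin L1-like genes, integrin alpha-3-like, integrin beta-3-like, integrin beta-like protein C, GATA-type zinc finger protein 1-like and 14 laccase genes. The 5 silent members were a second integrin beta-like protein C, 2 genes named Laccase-2, peroxidasin-like and NADPH oxidase 4-like. Of the laccase genes matched, laccase-3-like was thus the 1 that was expressed.

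Markers of other tissues were uneven. Muscle markers were present: 29 of 48 were expressed and 1, titin-like, was silent, and their sum was 5753 TPM in PBS 1, 6283 in PBS 2 and 5908 in PBS 3, the highest in PBS 2. It included tropomyosin isoform X9 at a mean of 1114 TPM, arginine kinase at 893 and sarcoplasmic calcium-binding protein at 588. The sarcomere proteins troponin T, Troponin I and troponin C averaged 380.3, 181 and 104 TPM, and paramyosin-like 364. Ciliated epithelium markers summed to 386 TPM in PBS 1, 542 in PBS 2 and 422 in PBS 3, again the highest in PBS 2, with 46 of 72 expressed and 7 silent, led by axonemal dynein light chain 4 at 59.9 TPM, tektin-2-like at 26.1 and axonemal dynein light chain 1 at 22.7. Digestive gland markers were near 0: 2 of 26 were expressed, carboxypeptidase A2-like at 1.75 TPM and endoglucanase 13-like at 1.64. Their sum over the list was at most 14.4 TPM in a library, and none of the 7 genes described as amylase, trypsin or chymotrypsin was expressed. The 4 silent digestive gland markers were trypsin-like, chymotrypsinogen A-like, chymotrypsin-like elastase family member 2A and pancreatic triacylglycerol lipase-like. The highest of the digestive markers that were not expressed was inactive pancreatic lipase-related protein 1-like at 1.24 TPM.

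Gonad and gamete markers summed to 961 TPM in PBS 1, 1104 in PBS 2 and 920.2 in PBS 3, with 26 of 42 expressed and 5 silent. The silent ones were 2 zonadhesin-like genes, sperm receptor for egg jelly-like, a sperm flagellar membrane protein and a testis-specific protein. The testis-specific tubulin alpha chain gave 734 TPM of this, zonadhesin-like 61.1 and synaptonemal complex protein 3 33.8, while vitellogenin, the yolk precursor, was at 8.64 TPM. Mantle and shell markers had 6 of 49 genes expressed and 19 silent, and summed to 223 to 249 TPM. They were led by 3 perlucin-like genes at 95.8, 94.1 and 30.7 TPM, and none of the 15 tyrosinase genes was expressed. Nerve markers had 24 of 176 genes expressed and 60 silent. In RNA of mixed cells, fewer cells of a type and less RNA per cell cannot be told apart, and the part of other tissues in these levels was not tested.

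**Figure D2:**
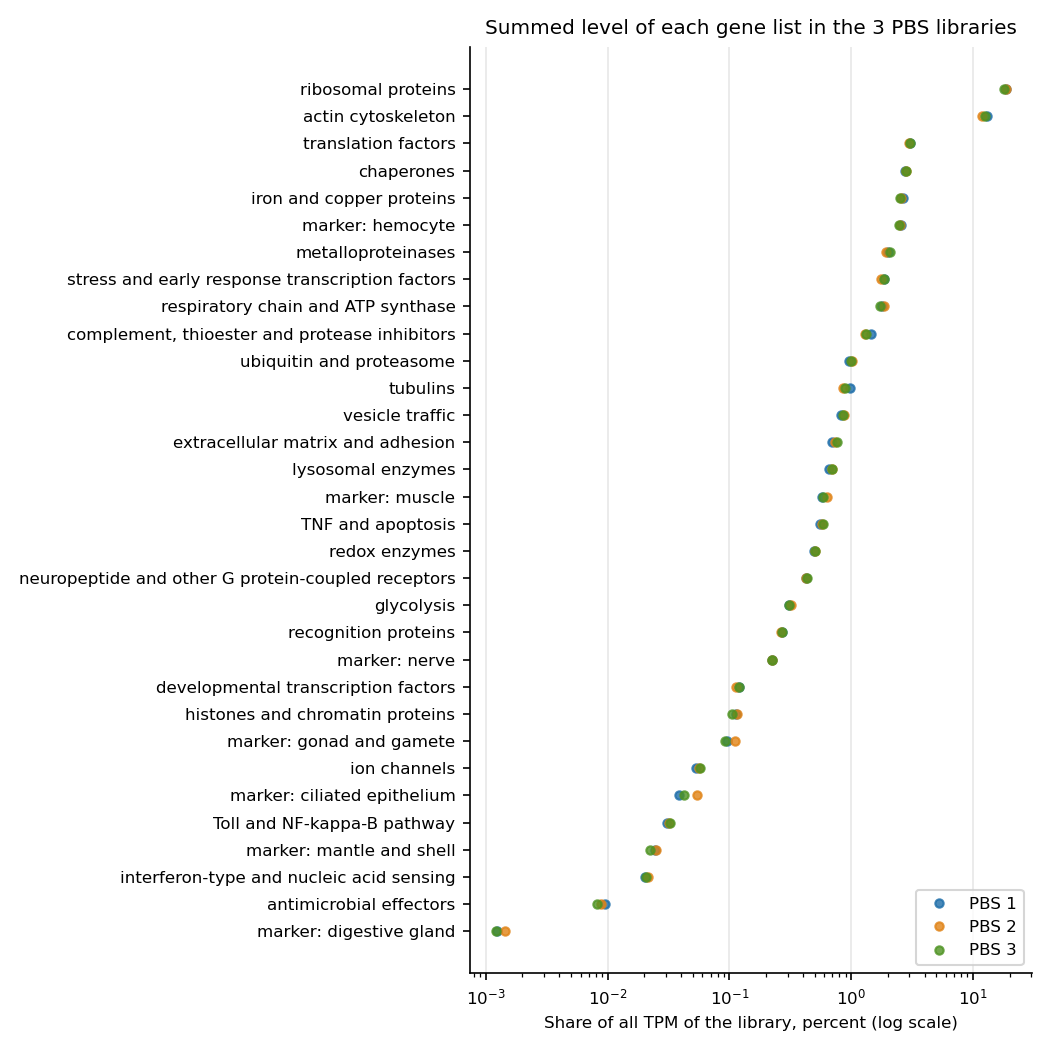
Summed level of each gene list as a percent of all TPM of the library (log scale), with 1 point per PBS library. Ribosomal proteins lead at 17.9% to 18.8%, the actin cytoskeleton follows at 11.8% to 12.9%, and antimicrobial effectors and digestive gland markers lie lowest.

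Immune genes covered a wide range of levels, and most of the receptor families were low. Of 110 recognition protein genes, 29 were expressed and 30 silent. Galectin-4-like, a galactose-binding lectin, had 2171 TPM in PBS 1, 2069 in PBS 2 and 2138 in PBS 3 and gave 78.8% of the summed level. Peptidoglycan recognition protein S1 averaged 174 TPM and fibrinogen-like protein 1 72.7. Among 42 toll-like receptor genes, which sense microbial products, 5 were expressed and 8 silent. The expressed ones were toll-like receptor 6 at 56.0 TPM, 2 genes for toll-like receptor 4 at 12.2 and 10.9, a second toll-like receptor 6 gene at 1.86 and Toll-like receptor 2 type-1 at 1.28. Over the 57 genes of the Toll and NF-kappa-B pathway, 15 were expressed and the sum was 310.0 TPM in PBS 1, 320.2 in PBS 2 and 326 in PBS 3. The highest members were NF-kappa-B inhibitor-interacting Ras-like protein 1 at 73.7 TPM and, after toll-like receptor 6, NF-kappa-B inhibitor alpha-like at 48.7.

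Genes described as antimicrobial effectors were few and mostly low at the RNA level. Effectors among the genes without a protein name, 35.4% of those ranked, would be missed. Of 11 genes, 4 were expressed and 2 silent, and their sum was 95.1 TPM in PBS 1, 88.8 in PBS 2 and 81.4 in PBS 3. Lipopolysaccharide-binding protein-like, which binds bacterial endotoxin, gave 74.1 TPM of it. The other 3 expressed genes encode the perforin-like macrophage-expressed gene 1 protein, lie on scaffold29623 and averaged 8.36, 2.52 and 1.93 TPM. The silent members were a further macrophage-expressed gene 1 protein and achacin-like. Interferon-type and nucleic acid sensing genes had 15 of 30 expressed and 3 silent, all 3 of them named interferon-induced very large GTPase 1-like. The list was led by Interferon regulatory factor 1 at 39.6 TPM, interferon regulatory factor 2-like at 33.0 and interferon-induced protein 44-like at 26.3.

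Cell death regulators had single high members, while their expressed share lay near that of all ranked genes. Of 115 TNF and apoptosis genes, 63 were expressed (54.8%, against 50.8% of all ranked genes) and 9 silent. They held 0.573% of the TPM, and the median level of the list was 3.36 TPM. The inhibitors of apoptosis baculoviral IAP repeat-containing protein 7-A-like and 3-like averaged 1299 and 1188 TPM, and Bcl-2 protein, a guard of the mitochondrial membrane, 1016. Of 21 caspases, the proteases that carry out apoptosis, 10 were expressed, the highest being Caspase-2 at 69.6 TPM, and 1 gene named Caspase-3 was silent.

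Lysosomal, vesicle and redox genes were broadly expressed. All 47 lysosomal enzyme genes had counts, 33 were expressed, and lysosomal alpha-mannosidase-like led at 2429 TPM, with V-type proton ATPase 16 kDa subunit at 710.0 after cathepsin L-a. Of 134 vesicle traffic genes, 100 were expressed and 6 silent. CD63 antigen-like, a tetraspanin of late endosomes and exosomes, had 2667 TPM in PBS 1, 2759.8 in PBS 2 and 2685 in PBS 3, followed by Rab-1A at 927 and CD9 antigen-like at 646. Of 72 redox enzyme genes, 51 were expressed and 2 silent (glutathione S-transferase A-like and NADPH oxidase 4-like), and peroxiredoxin averaged 2061 TPM, microsomal glutathione S-transferase 1-like 381 and glutathione-specific gamma-glutamylcyclotransferase 1-like 202. Histone and chromatin genes had 9 of 16 expressed and 1 silent (histone H3.3-like), with late histone H1-like at 291 TPM, histone H2A.V at 283 and high mobility group-T protein-like at 256.

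Receptors and channels were mostly low, with single high members. Of 142 G protein-coupled receptor genes, 40 were expressed and 29 silent. Neuropeptide S receptor-like had 1410.1 TPM in PBS 1, 1360.4 in PBS 2 and 1344 in PBS 3, octopamine receptor 1-like averaged 633 and a second neuropeptide S receptor-like gene 397. Ion channels had 31 of 204 genes expressed and 55 silent, with glutamate receptor-like at 204 TPM, potassium channel egl-36-like at 69.0 and calcium load-activated calcium channel-like at 58.0. The first of these and the neuropeptide S receptors also count among the nerve markers, where the highest gene held 61.5% of the sum.

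**Figure D3:**
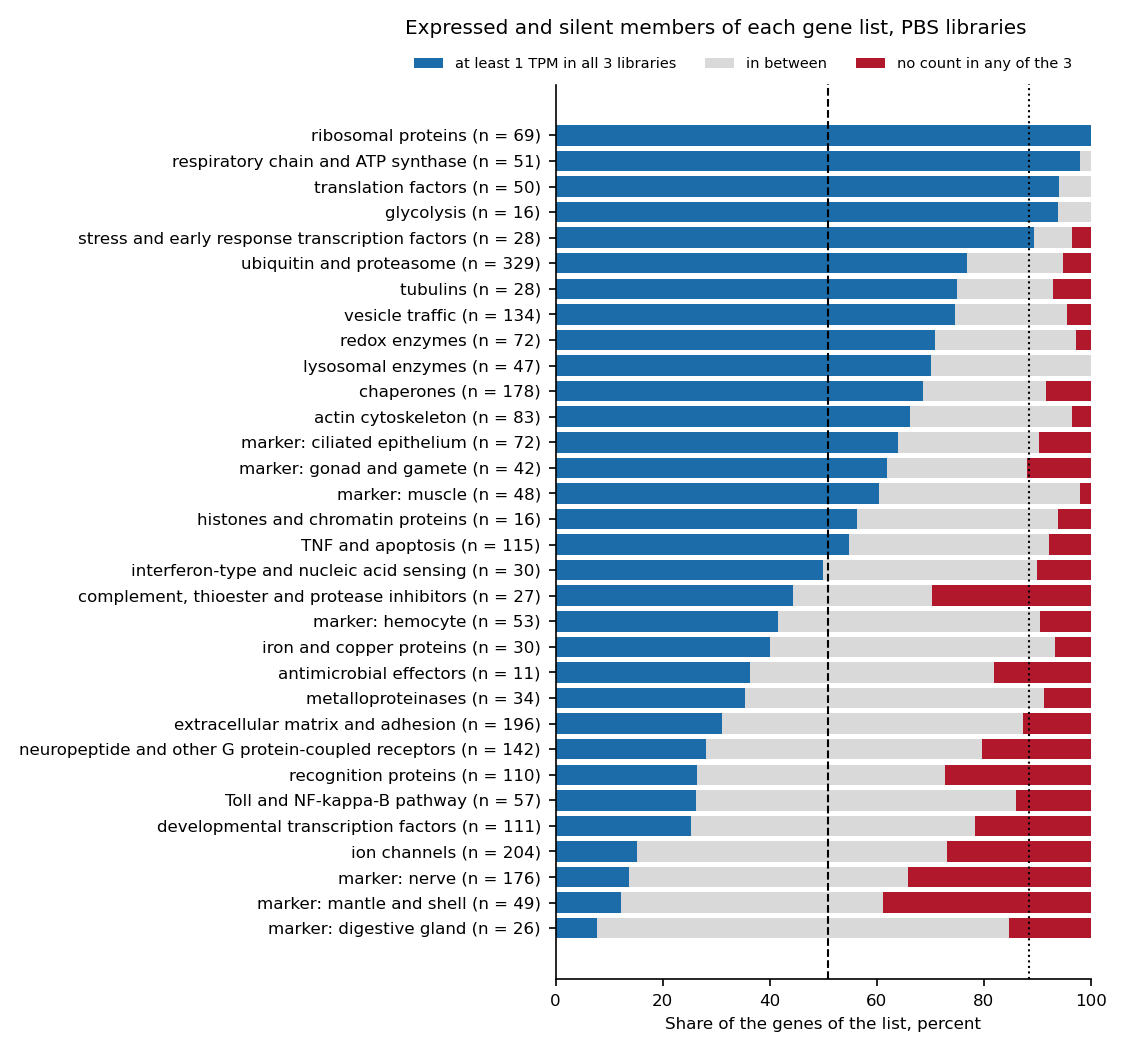
Share of the genes of each list that reached 1 TPM in all 3 PBS libraries (blue), had no count in any of the 3 (red) or lay in between (grey), in percent; the dashed line marks the expressed share of all ranked genes (50.8%) and the dotted line the start of their silent share (11.6%). All 69 listed ribosomal proteins are blue, and 34.1% of nerve markers and 38.8% of mantle and shell markers are red.

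The KEGG annotation in the table was summed in the same way. Of 146 KEGG pathways with at least 10 genes, Ribosome held the most TPM at 18.9% ± 0.528 (121 genes, 109 expressed and 1 silent). Phagosome was next at 10.8% ± 0.645 (191 genes, 78.9% of it from the actin gene). Protein processing in endoplasmic reticulum held 3.24%, Endocytosis 2.69%, RNA transport 2.41%, Spliceosome 2.23% and Oxidative phosphorylation 2.00%. Oxidative phosphorylation had 75 of 78 genes expressed, against 50.8% of all ranked genes. Pathways share genes, so these shares overlap.

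Silent genes were frequent in other pathways. Neuroactive ligand-receptor interaction had 376 genes, of which 93 (24.7%) were silent and 109 expressed, against 11.6% silent among all ranked genes. In chondroitin sulfate and dermatan sulfate synthesis 14 of 42 genes (33.3%) were silent, in keratan sulfate synthesis 9 of 33 (27.3%) and in lacto and neolacto glycosphingolipid synthesis 17 of 82 (20.7%). The Notch signaling pathway, which sets cell fates, had 20 of 110 genes silent (18.2%). Among 1530 GO terms of at least 10 genes, acetylcholine receptor activity had 34 of 94 genes silent (36.2%) and 6 expressed, cholinergic synaptic transmission 37 of 97 silent (38.1%) and 7 expressed, and galactosyltransferase activity 17 of 46 silent (37.0%) and 8 expressed. In collagen trimer, 14 of 39 genes were silent (35.9%) and 8 expressed. By contrast, the term extracellular exosome had 407 of 647 genes expressed and 45 silent, and held 6.84% of the TPM.

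Every one of the 2515 silent genes had a count in at least 1 exosome library, because the table lists no gene without a count in all 9 libraries. Genes that were never detected are thus not among those ranked. Of the silent genes, 61 reached 1 TPM in at least 3 of the 6 exosome libraries and 1 in all 6. That gene, described as uncharacterized protein LOC110442952, had 1.46, 1.11 and 1.16 TPM in LPS_T, 1.42, 1.61 and 2.43 in NOR_T, and 0 in the 3 PBS libraries. By the highest mean over the exosome libraries the named silent genes were Nephrin at 2.48 TPM, perlucin-like protein at 2.34, CWF19-like protein 2 at 2.25, thiopurine S-methyltransferase-like at 2.16 and nuclear hormone receptor E75-like at 1.97. None of these 5 had counts in all 6 exosome libraries. Nephrin had 6.52, 6.26 and 2.07 TPM in the LPS_T libraries and was at 0 in the 3 NOR_T and the 3 PBS libraries. Nuclear hormone receptor E75-like had 5.82, 3.46 and 2.53 TPM in the NOR_T libraries and was at 0 in the 3 LPS_T and the 3 PBS libraries. A count of 0 at these depths does not tell a silent gene from one of low level.

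The libraries were compared gene by gene over the 10982 expressed genes. The level differed by more than 2-fold between PBS 2 and PBS 1 in 680 genes (6.19%), between PBS 3 and PBS 1 in 677 (6.16%) and between PBS 3 and PBS 2 in 281 (2.56%). Over all ranked genes Spearman's rho was 0.928, 0.928 and 0.952 for these pairs, a description across genes, which are not replicates. The biological coefficient of variation fitted by edgeR was 15.5% over LPS_T, 16.9% over NOR_T and 20.7% over PBS (3 libraries each). Over PBS without PBS 1, whose depth is also the least, it was 15.8%. The fit took the estimated counts, about 3.84 per fragment, as they stood, so part of the counting error is included in these values.

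Spread narrowed as the level rose. The median coefficient of variation (CV, the SD over the mean of the 3 TPM values) was 20.1% at 1 to 10 TPM, 10.2% at 10 to 100, 5.35% at 100 to 1000 and 4.16% at 1000 or more. The CV expected from counting fragments alone had medians of 18.1%, 7.71%, 2.62% and 0.948% in these bins. A CV taken from 3 values tends to lie below such an expected CV, so the comparison understates the spread beyond counting. The observed median lay above the counting value in every bin, and 55.9%, 66.9%, 83.9% and 96.6% of the genes lay above their own. Among the 1448 named genes of at least 50 TPM the median CV was 5.60%, 1153 lay under 10% and 29 over 20%.

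**Figure D4:**
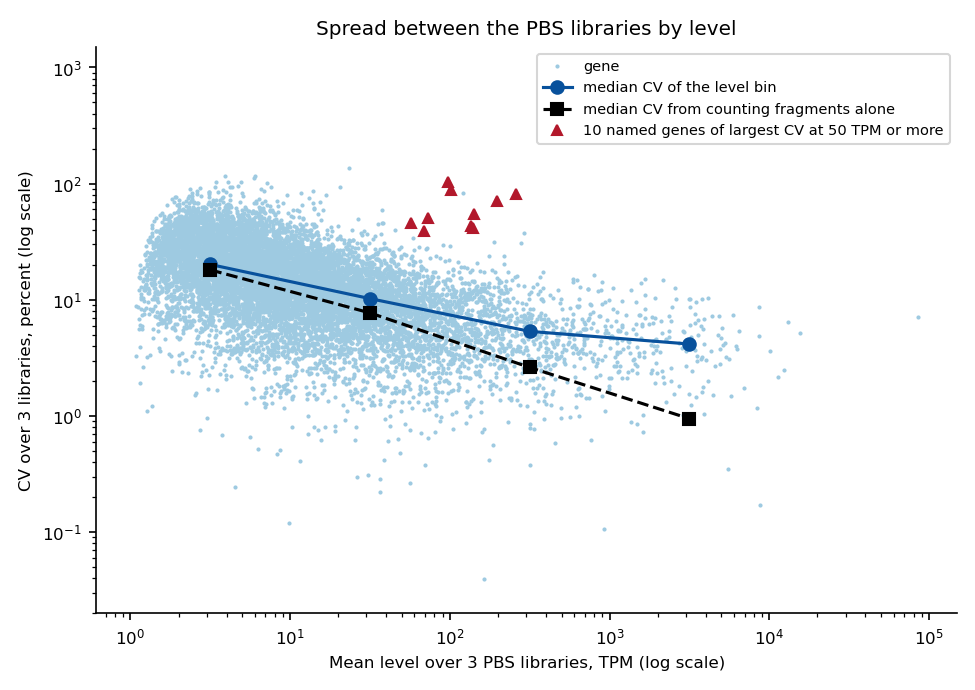
CV over the 3 PBS libraries against mean level for the 10982 expressed genes (both axes log). Added are the median of each level bin, the median CV expected from counting fragments alone, and the 10 named genes of largest CV at 50 TPM or more (triangles). The bin medians run from 20.1% to 4.16%, against 18.1% to 0.948% from counting.

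The genes that varied most were often short pieces on scaffolds of their own. Of the 10 named genes with the largest CV, 6 were alone on their scaffold, against 54 (3.73%) of the 1448, and 7 were highest in PBS 1. A transcription factor AP-1-like gene of 255 bases (evm.TU.scaffold688871.1) had 213 TPM in PBS 1, 40.6 in PBS 2 and 39.2 in PBS 3, a CV of 102%. A further AP-1-like gene (evm.TU.scaffold699173.1) had 461, 280.2 and 36.7 TPM in PBS 1, 2 and 3. The longer AP-1-like gene described above had a CV of 2.81%. Frizzled-5, a Wnt receptor (evm.TU.scaffold715831.1), had 24.7 TPM in PBS 1, 199.7 in PBS 2 and 78.6 in PBS 3, while a gene of the same name and length on scaffold37759 had 402, 185 and 285. A profilin-like gene (evm.TU.scaffold722977.1) had 114, 118 and 357 TPM in PBS 1, 2 and 3. Counts may be shared between such copies, so their single values are uncertain.

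The other genes of large CV included the pair of fibropellin-1-like genes. These EGF-repeat genes had 204 and 207 TPM in PBS 1, 95.9 and 99.3 in PBS 2, and 108 and 115 in PBS 3. RNA-binding motif, single-stranded-interacting protein 3 had 115 TPM in PBS 1, 52.8 in PBS 2 and 51.0 in PBS 3, and Proline-rich nuclear receptor coactivator 2 had 87.6, 42.1 and 42.6. These 4 genes were highest in PBS 1. Chloride intracellular channel protein 4-like had 87.1, 107 and 231 TPM, and 26S protease regulatory subunit 4 (evm.TU.scaffold725259.1) 87.6, 38.3 and 81.5.

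At the other end were genes whose 3 values nearly coincided. Chromobox protein homolog 1-like, a heterochromatin protein, had 162.4, 162.5 and 162.4 TPM in PBS 1, 2 and 3. Rab-1A, a GTPase of transport from the endoplasmic reticulum, had 925, 927 and 927 TPM. The futsch-like microtubule-associated protein, myophilin-like and ornithine decarboxylase 1-like followed with CVs of 0.265%, 0.353% and 0.379%. All 5 lay below the CV expected from counting, which for Chromobox protein homolog 1-like was 2.09%.

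The last question was where the genes that are abundant in PBS stood after injection of exosomes. Ranks were much the same: 27 of the first 30 and 94 of the first 100 genes in PBS were also among the first 30 and 100 by the mean of the exosome libraries. In the fit over 11678 genes, 3449 were called between the mean of both exosome groups and PBS (edgeR, with a threshold of 0.05 on the p-value after Benjamini-Hochberg adjustment), which is 29.5% of genes tested. Of these 1702 were higher with exosomes and 1747 lower. Of the 100 genes most abundant in PBS, 42 were called, 10 higher (14.6% of all tested genes were called higher) and 32 lower (15.0% were called lower). Their median log2 change was -0.13, against 0.0043 for all genes tested. The counts depend on the scaling. With library size alone 2519 genes were called (21.6%), 1615 higher (13.8%) and 904 lower (7.74%), and among the 100 there were 18 calls, 13 higher and 5 lower. With limma on log2(FPKM + 1) 2107 genes were called (18.0%), 13.2% of all genes higher and 4.83% lower, and among the 100 there were 11 calls, 9 higher and 2 lower. Without the 2 set-aside genes, which enter the library size and the FPKM of PBS 1, edgeR called 29.8% of all genes (13.5% higher and 16.3% lower) and 58 of the 100, 10 higher and 48 lower. These scalings move the median change of all genes to 0.10 with library size and 0.15 with limma. Relative to that median, the 100 stood at -0.13 with edgeR, -0.13 with library size and -0.11 with limma. Without PBS 1, 44 of the 100 were called, 14 higher and 30 lower, against 27.0% of all genes (13.2% higher and 13.9% lower). Since the 100 were ranked on the PBS libraries that enter the comparison, no test was made of them as a set.

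Most of these changes lay under 0.5 on the log2 scale, and 8 of the 42 reached it in either direction. These 8 are named here after their values were seen. The share of all called genes that reached 0.5 was not computed. Whether small changes are particular to the abundant genes was therefore not tested. All 4 metalloproteinases among the first 100 rose with exosomes. The 2 on scaffold28041 have the same description and strand, and whether they share reads was not tested. Matrix metalloproteinase-19-like (evm.TU.scaffold28041.4) had 11345, 11099 and 11057 TPM in LPS_T, 7987, 7453 and 7885 in NOR_T, and 3169, 3521 and 3559.6 in PBS. The groups did not overlap, and the log2 change was 1.42 (SE 0.05, edgeR adjusted p = 1.5e-11). Its neighbour evm.TU.scaffold28041.2 rose by 1.35 (SE 0.06, edgeR adjusted p = 1.3e-10), with means of 10979 TPM in LPS_T, 7547 in NOR_T and 3488 in PBS. The more abundant matrix metalloproteinase rose by 0.59 (SE 0.07, edgeR adjusted p = 7.5e-06), with 16835 ± 524 TPM in LPS_T, 10534 ± 252 in NOR_T and 8642 ± 745 in PBS (SD, n = 3 each). Zinc metalloproteinase nas-14-like rose by 0.50 (edgeR adjusted p = 3.5e-06), with means of 4171 TPM in LPS_T, 2950.0 in NOR_T and 2422 in PBS. Collagen alpha-1(II) chain-like rose by 0.54 (SE 0.04, edgeR adjusted p = 2.2e-07), with means of 5768 TPM in LPS_T, 5580.3 in NOR_T and 3818 in PBS.

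Both chaperones among the first 100 fell. Heat shock protein 90 had 1432, 1442 and 1455 TPM in LPS_T, 2222, 2213 and 2186 in NOR_T, and 3385, 3543 and 3607 in PBS. Its log2 change was -1.01 (SE 0.05, edgeR adjusted p = 1.3e-10), and every exosome library lay below every PBS library. Heat shock protein 70 changed by -0.51 (SE 0.05, edgeR adjusted p = 8.8e-07), with 5361 ± 106 TPM in LPS_T, 6810 ± 54.9 in NOR_T and 8397 ± 98.6 in PBS (SD, n = 3 each). With limma on log2(FPKM + 1) its change was -0.34 and missed the threshold (adjusted p = 0.052). Transforming growth factor-beta-induced protein ig-h3-like changed by -0.64 (SE 0.06, edgeR adjusted p = 5.3e-07), with means of 3595 TPM in LPS_T, 4765 in NOR_T and 6317 in PBS. The 69 listed ribosomal protein genes together held 16.1% to 18.1% of the TPM in the exosome libraries and 17.9% to 18.8% in the PBS libraries, ranges that overlapped. In the fit 29 of the 69 were called, all lower, with a median log2 change of -0.16, where 15.0% of all genes tested were called lower. Of the 43 among the 100, which were picked by their PBS level, 15 were called, all lower. Their median log2 change was -0.15. The number called lower was 10 without PBS 2, 25 without NOR_T 2 and 26 without the 2 set-aside genes. Over all genes tested, 1401 of 11514, 1663 of 11550 and 1902 of 11676 were called lower in these 3 settings. With library size alone or with limma none of the 43 was called, and their limma median was 0.01. Relative to the median of all genes, that of the ribosomal proteins was -0.16 with edgeR, -0.14 with library size and -0.13 with limma. The 7 genes of the actin cytoskeleton lay between -0.16 and 0.16, and 2 were called, actophorin-like at -0.16 (edgeR adjusted p = 0.030) and myophilin-like at 0.16 (edgeR adjusted p = 0.023). Neither call was stable. Over 17 other settings actophorin-like was called in 9, with adjusted p from 0.00202 to 0.962 and a limma change of 0.01, and it was lost with the replicate block, with library size alone and without PBS 2, LPS_T 1, LPS_T 3 or NOR_T 1. Myophilin-like was called in 10, with adjusted p from 0.00432 to 0.0860, and was lost with limma and without PBS 2, PBS 3, LPS_T 1, NOR_T 2 or NOR_T 3.

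Marker lists of other tissues were summed in the same libraries. Muscle markers held 0.640% to 0.695% of the TPM in the 6 exosome libraries and 0.575% to 0.628% in the 3 PBS libraries, and nerve markers 0.239% to 0.300% with exosomes and 0.223% to 0.224% in PBS. Mantle and shell markers held 0.0158% to 0.0221% with exosomes and 0.0223% to 0.0249% in PBS. In these 3 lists the exosome and PBS ranges did not overlap, but for nerve and for mantle and shell this rested on 2 genes each. Lists that mark no tissue could separate as well. Ubiquitin and proteasome genes held 1.02% to 1.05% with exosomes and 0.964% to 1.01% in PBS, while the ranges of glycolysis overlapped. The share of all 32 lists that separated was not computed, so these 3 add no support. Without the 2 highest genes of each list, a step chosen after the values were seen, nerve markers held 0.0465% to 0.0509% with exosomes and 0.0437% to 0.0485% in PBS, and mantle and shell markers 0.00370% to 0.00529% with exosomes and 0.00481% to 0.00501% in PBS, so both overlapped. Muscle markers without tropomyosin isoform X9 and arginine kinase held 0.417% to 0.466% with exosomes and 0.387% to 0.416% in PBS. The muscle ranges were then barely apart. The 2 nerve markers left out are both neuropeptide S receptor-like genes: evm.TU.scaffold9805.18 averaged 1388 TPM in LPS_T, 519 in NOR_T and 397 in PBS, and evm.TU.scaffold493.8 averaged 1096 in LPS_T, 1399 in NOR_T and 1372 in PBS. Hemocyte markers held 2.17% to 2.48% with exosomes and 2.47% to 2.58% in PBS. Without ferritin 2 and ferritin they held 0.405% to 0.434% with exosomes and 0.416% to 0.465% in PBS. The ranges of ciliated epithelium markers (0.0240% to 0.0806% with exosomes, 0.0386% to 0.0542% in PBS), gonad and gamete markers (0.0481% to 0.166% with exosomes, 0.0920% to 0.110% in PBS) and digestive gland markers (0.000956% to 0.00147% with exosomes, 0.0012% to 0.00144% in PBS) overlapped. The part of these lists in the changes of metalloproteinases, collagen and chaperones was not tested.

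**Figure D5:**
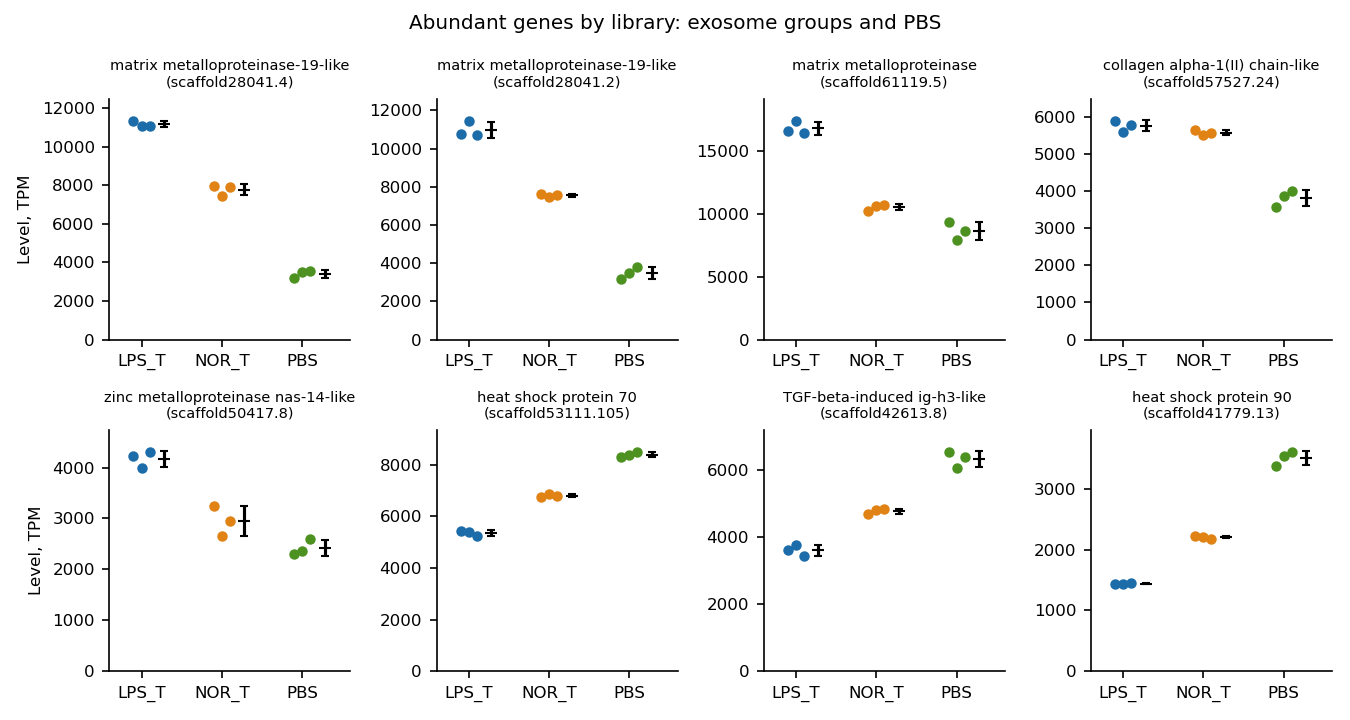
Levels in TPM of the 8 genes among the 100 most abundant in PBS whose called log2 change was at least 0.5 in either direction, with 1 point per library and the mean ± SD of each group beside it (n = 3 each), in the order LPS_T, NOR_T, PBS; vertical axes start at 0. The 8 were picked by this same comparison, which favours groups that do not overlap. In 5 genes every exosome library lies above every PBS library, and in 3 every exosome library lies below. The share of such genes over all those tested was not computed, so these counts add no support.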

How the data were processed

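Poly(A) RNA of hemocytes was read from both fragment ends, per the labels' protocols, in libraries without strand information. HISAT, StringTie and edgeR are named in the submitters' processing notes, without versions; the genome build is not given in the sources used here. Per gene and library, the table the authors deposited holds, per the file headers, an FPKM (fragments by gene length and depth). It also holds what the file headers call counts, taken here for estimated counts because the values the authors deposited cluster at steps of about 3.84 where low in the PBS columns. They were rounded. Gene names come from the descriptions in the table. Of the ranked genes, 92.1% had a description, and 88.2% had one matched from Mizuhopecten yessoensis, a related scallop. Copies that share reads, and overlapping or antisense genes, are uncertain.

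FPKM was scaled to TPM without the 2 scaffold38697 genes. Expressed means at least 1 TPM in all 3 PBS libraries, and silent means no count in any. Transcript length was implied by count, FPKM and library total. The exosome comparison used edgeR 4.0.16 (TMM, quasi-likelihood, a mean per title group over all 9 libraries, genes reaching FPKM 1 in 3 or more libraries, Benjamini-Hochberg). Alternatives were limma 3.58.1, DESeq2 1.42.0, other scalings and filters, a replicate block and each library left out. The script was tested on simulated counts. R 4.3.3, Python 3.11.15 and matplotlib 3.10.9 were used.

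The genes and the 32 lists were chosen with earlier results of these data known. Patterns were trimmed of false matches and slightly widened after the matched descriptions were seen, and 2 lists were added after levels were seen. Named are the first 30 genes, the 3 highest of each list, all hemocyte markers, the named genes of at least 50 TPM with the 10 largest and 5 smallest CVs, the 5 silent genes highest in the exosome libraries, the 2 set-aside genes and the members of counts of 5 or fewer; others were chosen after their values were seen.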

Additional observations from a re-analysis of the deposited data

How the results depend on the processing

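Silent genes numbered 2985 to 3718 with a PBS library left out, against 2515. With a threshold of 5 TPM in all 3 libraries 6846 genes were expressed, against 10982, and with a mean under 0.1 TPM as the rule 4614 genes were silent, against 2515. The share of the 100 most abundant genes was 39.4% with both scaffold38697 genes kept in the sum, 58.7% in FPKM as deposited, where those genes are themselves among the 100, and 44.0% as a share of counts, against 49.2%. That of ribosomal proteins was 14.8% with both genes kept, 14.8% in FPKM as deposited and 9.08% as a share of counts, against 18.5%. The biological coefficient of variation, which includes part of the counting error, was 17.6% over all 9 libraries and 42.0% with no filter on low values, against 20.7%. It was also 20.7% with DESeq2 size factors, and from 15.8% to 23.7% with a PBS library left out. In the exosome comparison, limma called 2107 of 11678 genes tested on log2(FPKM + 1) and 1841 of 11678 on log2(FPKM + 0.1), against 3449 of 11678. Of the 100 most abundant it called 11 and 10, against 42. With library size only, 18 of the 100 were called, against 21.6% of all genes tested. Leaving out a library left 2864 to 3286 genes called, and 32 to 54 of the 100. The lowest values were those without PBS 2, with 2864 of 11514 genes tested and 32 of the 100. The highest were those without NOR_T 2, with 3286 of 11550 genes tested and 54 of the 100. For the 8 genes named in that comparison, 134 of 136 values over 17 settings kept direction and call, and the other 2 were limma values of heat shock protein 70. The causes were not tested. With the replicate block 3331 of 11678 genes tested were called, and 39 of the 100. The replicate numbers are shared by the groups, and deviations of same-numbered libraries correlated at -0.03 to 0.08. Differently numbered libraries were not compared, so these values do not settle whether the numbers pair the libraries.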
